A study of Danio rerio with 18 samples.

Results

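Among 12 zebrafish (Danio rerio) tumours in which the sox10 promoter drove BRAF V600E, a mutant kinase that signals without a stimulus, the 6 tumours with the highest level of atad2 (ENSDARG00000076590) were compared with the 6 with the lowest. The series holds 18 tumours in all. The 6 others, used as a check, carried the same oncogene behind the promoter of mitfa, a melanocyte transcription factor gene. All fish had the p53-/- Tu background and had received their plasmid by injection at the 1-cell stage, so that every tumour arose in a mosaic founder, and RNA was taken from the entire tumour of a grown fish. High and low atad2 are not conditions of the study: the groups were chosen by the measured level of this gene in the same tumours, which is therefore described without a test. The labels do not say which tumours came from separate fish, so that p-values speak only of the spread among these 12 samples.

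ATAD2 is a nuclear ATPase with a bromodomain, a module that binds acetylated histones, and in mammalian cells its gene is switched on by E2F factors and its protein loads onto chromatin during DNA replication. E2F factors also switch on the replication genes of the G1/S step of the cell cycle, while a later set of genes serves chromosome segregation in G2/M. Sox10 marks neural crest cells and, later, myelinating glia: oligodendrocytes in the brain and Schwann cells in nerves. Dividing glial precursors express few myelin genes, which come on as the cells leave the cell cycle and mature.

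Expression was measured by RNA sequencing and is given in CPM, reads of a gene per 1000000 reads assigned to genes in that tumour. The high group held sox10 tumour 9 with 122 CPM of atad2, tumour 10 with 118 CPM, tumour 1 with 99.0 CPM, tumour 12 with 82.1 CPM, tumour 2 with 61.3 CPM and tumour 8 with 55.9 CPM. The low group held tumour 4 with 39.3 CPM, tumour 11 with 39.2 CPM, tumour 6 with 24.1 CPM, tumour 7 with 23.98 CPM, tumour 5 with 19.5 CPM and tumour 3 with 10.5 CPM. The levels thus form a gradient, and the groups are parted between tumour 8 and tumour 4. The mitfa tumours had 29.7 to 79.3 CPM, with a median of 47.8 CPM, a range that spans the dividing point. Scaling the counts by TMM factors, a correction for library composition, gave the same 6 and 6 tumours.

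Depth was 17480516 ± 2110829 reads assigned to genes in high-atad2 tumours and 16317442 ± 515394 in low-atad2 tumours (SD, n = 6 each, 2-sided exact permutation test, p = 0.225, adjusted p = 0.450 over 4 library measures). Reads outside annotated genes made up 13.9% ± 2.09 and 14.7% ± 2.01 (exact permutation adjusted p = 0.506), and mitochondrial genes took 3.03% ± 0.710 and 2.49% ± 0.243 of gene reads (exact permutation adjusted p = 0.450). Tumours 9 and 10, which have the 2 highest atad2 levels, stood apart as a pair. In the median gene, the squared difference between their counts was 2.42 times that of sampling noise, against at least 16.5 times for every other pair of sox10 tumours. The main results are therefore also given with their counts summed into 1 library. All 12 tumours had glial transcripts and hardly any melanocyte transcripts, although the labels call all 18 melanoma. SOX10 was at 564 to 1372 CPM in high-atad2 tumours and 765 to 1281 CPM in low-atad2 tumours, against 269 to 659 CPM in mitfa tumours. The glial gene S100B was at 233 to 2489.9 CPM in high-atad2 tumours and 805 to 2004 CPM in low-atad2 tumours, against 1.95 to 8.72 CPM in mitfa tumours. Expression of pmela, a melanosome scaffold gene, was 3.78 to 9.86 CPM in high-atad2 tumours and 3.49 to 9.19 CPM in low-atad2 tumours, against 677 to 9733 CPM in mitfa tumours.

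High-atad2 tumours had more transcripts of nearly all measured genes of DNA replication and mitosis, and far more transcripts of skeletal muscle. They had fewer transcripts of several mature myelin and several astroglial genes. Across 17607 genes tested besides atad2, 837 were higher (4.75%) and 738 lower (4.19%) in high-atad2 tumours, together 8.95%, in the quasi-likelihood test of edgeR with a threshold of 0.05 on the adjusted p. Of these, 733 were at least 2-fold higher and 597 at least 2-fold lower. Every high-atad2 tumour lay above every low-atad2 tumour in 566 genes (3.21% of those tested), and below in 310 (1.76%). The median log2 fold change of all genes was 0.02. With tumours 9 and 10 summed, 531 genes were higher (2.97%) and 484 lower (2.71%), of which 530 and 471 were among those called with 12 libraries. With a skeletal muscle score as covariate, 0 genes were called higher and 14 lower (0.0795%). At an unadjusted p under 0.05 that fit gave 542 higher and 854 lower. The score, a mean log2 CPM, was 5.20 to 7.33 in high-atad2 tumours, 4.33 in low-atad2 tumour 11 and 0.122 to 0.855 in the other 5 low-atad2 tumours, so that values with this covariate rest largely on tumour 11. Without tumour 11, an alternative added after the data were seen, that fit called 0 genes in either direction, with 576 higher (3.2%) and 548 lower (3.04%) at an unadjusted p under 0.05. The score then parts the groups by a wide gap. Fold changes from that fit, here and below, therefore cannot tell muscle content and atad2 group apart. Without tumours 4 and 7, a low-atad2 pair with more mature neuron transcripts than the others, 416 were higher (2.29%) and 392 lower (2.16%). DESeq2 on all 12 libraries, without a covariate, called 1361 higher and 1610 lower. Since whole tumours were measured, more cells of a type and more RNA per cell cannot be told apart.

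Transcripts of skeletal muscle separated the groups without overlap and are given first because they part the same tumours as the results below. The summed level of 29 skeletal muscle genes was 3055, 12119.7 and 19472 CPM (lowest, median and highest) in high-atad2 tumours and 55.0, 79.3 and 1483 CPM in low-atad2 tumours. Of 26 members tested, 21 were higher and 0 lower, beside 4.75% and 4.19% of all genes, and the median log2 fold change was 4.39. The groups did not overlap in 17 members, all higher in high-atad2 tumours, beside 3.21% of all genes. With tumours 9 and 10 summed, 15 of 26 members tested were higher, beside 2.97% of all genes. Without tumours 4 and 7, the count was 9 of 28, beside 2.29% of all genes. The low-atad2 tumour with muscle transcripts was tumour 11, and the other 5 had at most 117 CPM. Mitfa tumours covered the whole range, from 48.0 to 38037 CPM.

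The 6 highest fold changes among called genes by the naming rule belonged to pvalb3, a calcium-binding parvalbumin, CKMT2 (ENSDARG00000069615), the mitochondrial creatine kinase of muscle, synpo2b, an actin-binding protein gene, nme2b.2, a nucleoside diphosphate kinase gene, myhc4, a fast myosin heavy chain, and a copy of GAPDH (ENSDARG00000043457), a glycolytic enzyme. Their log2 fold changes ran from 6.28 for this GAPDH copy to 6.65 for pvalb3, and from 1.37 to 3.18 with the muscle score as covariate. They ran from -3.77 for CKMT2 to 0.92 for this GAPDH copy when tumour 11 was also left out. The score is itself a mean over skeletal muscle genes, so that a fall of muscle genes with it was built in. Levels of pvalb3 were 71.6, 509 and 1066 CPM (lowest, median and highest) in high-atad2 tumours and 1.70, 2.68 and 16.4 CPM in low-atad2 tumours (log2 fold change 6.65 ± 0.83, SE, edgeR adjusted p = 0.00324). MYOD1, a transcription factor of muscle precursors, was at 1.11, 3.26 and 6.34 CPM in high-atad2 tumours and 0, 0.121 and 1.56 CPM in low-atad2 tumours (log2 fold change 3.004 ± 0.85, SE, edgeR adjusted p = 0.0405). MYOG, a later factor of the same lineage, was too low to be tested, at 0.370 to 2.45 CPM in high-atad2 tumours and 0 to 0.936 CPM in low-atad2 tumours.

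**Figure D1:**
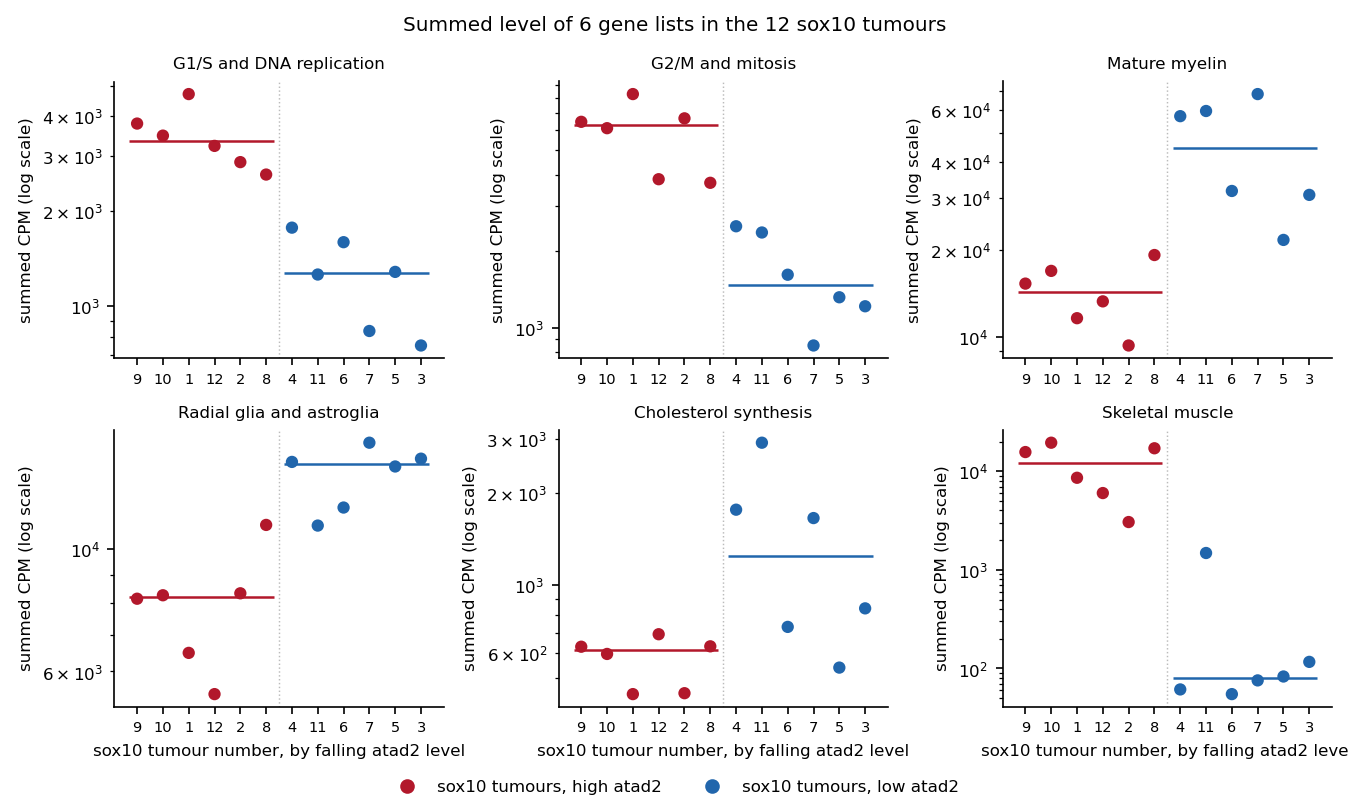
Summed CPM (log axis) of 6 gene lists in each sox10 tumour, ordered by falling atad2 level, with red points for the 6 high-atad2 tumours on the left, blue points for the 6 low-atad2 tumours on the right, and lines at the group medians. The replication, mitosis, myelin and skeletal muscle lists do not overlap between the groups, while the cholesterol list does.

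Genes of the G1/S step and DNA replication were higher in high-atad2 tumours almost throughout. Of 48 members tested, 43 were higher and 1 lower, beside 4.75% and 4.19% of all genes, and the median log2 fold change was 1.56. The summed level of the list was 2616, 3351 and 4710.4 CPM in high-atad2 tumours, 750.0, 1272 and 1774 CPM in low-atad2 tumours and 1517, 2031 and 2809 CPM in mitfa tumours (lowest, median and highest). No high-atad2 tumour overlapped with a low-atad2 tumour in this sum, and 37 members also separated the groups one by one, beside 3.21% of all genes.

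RRM2 (ENSDARG00000078069), which encodes a subunit of the enzyme that makes deoxyribonucleotides, was at 96.8, 168 and 285 CPM in high-atad2 tumours and 10.5, 32.3 and 39.0 CPM in low-atad2 tumours. This was the highest fold change of the list, 2.54 ± 0.33 on the log2 scale (SE, edgeR adjusted p = 0.00324), and the groups did not overlap. MCM2, part of the replicative helicase, was at 149.7, 164 and 239.7 CPM in high-atad2 tumours and 19.5, 48.0 and 101 CPM in low-atad2 tumours (log2 fold change 1.63 ± 0.34, SE, edgeR adjusted p = 0.0109). PCNA, the sliding clamp of DNA polymerase, was at 235, 459 and 884 CPM and at 87.9, 190.0 and 259.7 CPM in the high- and low-atad2 tumours, with an overlap between groups (log2 fold change 1.49 ± 0.35, SE, edgeR adjusted p = 0.0174). E2F1, the transcription factor, was higher by 1.93 ± 0.40 on the log2 scale (SE, edgeR adjusted p = 0.00988) at low levels of 6.33 to 21.1 CPM in high-atad2 tumours and 1.48 to 5.43 CPM in low-atad2 tumours.

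The members that did not pass the test were CCNE1, MCM7, ORC6 and RPA1, with log2 fold changes of 0.72 to 0.85. The single lower member was a second copy of RRM2 (ENSDARG00000020711). It was nearly silent in high-atad2 tumours, at 0.555, 1.35 and 3.02 CPM, and ran from 0.236 through a median of 19.1 to 33.2 CPM in low-atad2 tumours (log2 fold change -3.50 ± 0.97, SE, edgeR adjusted p = 0.0387). With tumours 9 and 10 summed its edgeR adjusted p was 0.0807, and its call was lost when any of 9 single tumours (all but 12, 5 and 3) was left out. The 2 copies point in opposite directions. Whether the authors' counting split reads between these copies was not tested.

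Genes of G2/M and mitosis were higher in high-atad2 tumours with 1 exception. All 66 members tested had a positive log2 fold change, between 1.04 and 2.46 with a median of 1.89. Beside 4.75% of all genes, 65 members were higher at the threshold. The gene that missed it was CCNB2, a mitotic cyclin, at 1.57 ± 0.47 (SE, edgeR adjusted p = 0.0521). The list sum was 3711, 6264 and 8285 CPM in high-atad2 tumours, 851, 1466 and 2504 CPM in low-atad2 tumours and 1555, 3057 and 3551 CPM in mitfa tumours. Each high-atad2 tumour lay above each mitfa tumour as well as above each low-atad2 tumour.

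ASPM, a spindle pole protein gene, was at 108, 190.3 and 291 CPM in high-atad2 tumours and 20.8, 35.4 and 57.8 CPM in low-atad2 tumours (log2 fold change 2.46 ± 0.32, SE, edgeR adjusted p = 0.00324). The kinase CDK1, which drives entry into mitosis, was at 122, 203 and 321 CPM in high-atad2 tumours and 19.1, 52.9 and 83.4 CPM in low-atad2 tumours (log2 fold change 1.98 ± 0.34, SE, edgeR adjusted p = 0.00498). The proliferation marker mki67 was at 169, 404 and 549 CPM in high-atad2 tumours and 47.5, 86.9 and 154 CPM in low-atad2 tumours (log2 fold change 1.92 ± 0.36, SE, edgeR adjusted p = 0.00707). None of these 3 overlapped between the groups. TOP2A, the topoisomerase that untangles chromosomes, and CCNB1, another mitotic cyclin, had log2 fold changes of 1.98 and 1.96 with an overlap (edgeR adjusted p = 0.0105 and 0.00851).

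Cell cycle genes and muscle genes both separate the groups. Within a group they do not rank the tumours alike, which cannot tell muscle content and atad2 group apart. In high-atad2 tumours 9, 10, 1, 12, 2 and 8 the mitosis sums were 6445, 6084, 8285, 3834, 6651 and 3711 CPM, and the muscle sums 15653, 19472, 8586, 6009.9, 3055 and 17098 CPM. Tumour 2 had the lowest muscle sum of this group and its second highest mitosis sum, and tumour 8 had a high muscle sum and the lowest mitosis sum. Among mitfa tumours, number 5 had the highest muscle sum, 38037 CPM, with a mitosis sum of 3514 CPM, and number 1 had 1501 CPM and 3551 CPM. With the muscle score as covariate all 66 mitosis members kept a positive fold change with a median of 1.49, 18 of them at an unadjusted p under 0.05, and for the replication list 47 of 48 were positive with a median of 1.56 and 20 at that level. In that fit 55.4% of all genes were positive and 3.08% were higher at the unadjusted level. The score itself separates the groups without overlap, so that muscle content and atad2 group cannot be told apart, and 0 members of either list passed the adjusted threshold. Without tumour 11 the medians with this covariate were 4.82 and 3.16, with all 66 and all 48 members positive. Of them 47 and 15 were at an unadjusted p under 0.05, beside 3.2% of all genes.

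**Figure D2:**
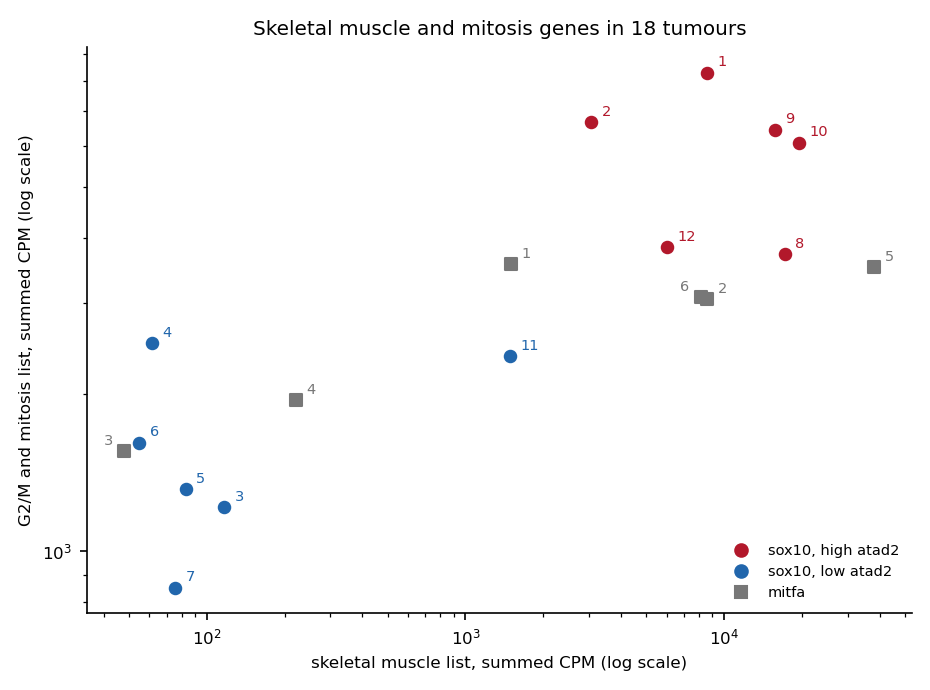
Summed CPM of the G2/M and mitosis list against summed CPM of the skeletal muscle list, both on log axes, in 18 tumours numbered as in their group (red circles, high-atad2 sox10; blue circles, low-atad2 sox10; grey squares, mitfa). Sox10 tumours of the 2 groups fall apart on both axes, and mitfa tumours spread over the muscle axis from 48.0 to 38037 CPM at mitosis sums of 1555 to 3551 CPM.

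Leaving out any 1 tumour gave 36 to 42 higher members in the replication list and 58 to 65 in the mitosis list. The counts were 38 and 59 with tumours 9 and 10 summed, and 29 and 50 without tumours 4 and 7. Taking atad2 as a continuous measure gave 39 and 61, and the 4 highest against the 4 lowest tumours gave 33 and 63.

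Many DNA repair genes were also higher. In the DNA damage list 25 of 43 members tested were higher (58.1%, beside 4.75% of all genes) and 0 lower, with a median log2 fold change of 1.098. The groups were separated in 16 members, beside 3.21% of all genes. The list sum was 1347, 1860.1 and 2219 CPM in high-atad2 tumours and 746, 959 and 1089.7 CPM in low-atad2 tumours, without overlap. Examples are FANCI, a gene of interstrand crosslink repair, with a log2 fold change of 1.999 ± 0.37, and PARP1, a sensor of DNA breaks, with 0.84 ± 0.15 (SE, edgeR adjusted p = 0.00668 and 0.00615). Without tumours 4 and 7 the number of higher members was 13. With the muscle score as covariate the median was 0.99, with 8 members higher at an unadjusted p under 0.05, beside 3.08% of all genes. Without tumour 11 it was 2.67, with 4 such members, beside 3.2% of all genes. With the mean level of the replication and mitosis lists as covariate, added after the data were seen, it was 0.08. There were then 0 such members, beside 2.7% of all genes. This score also parts the groups, at 5.18 to 6.24 in high-atad2 tumours and 3.24 to 4.62 in low-atad2 tumours. Values with it, here and below, therefore cannot tell cell cycle level and atad2 group apart.

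Among regulators upstream of S phase, 4 of 30 tested members of the list of D cyclins, CDKs and their inhibitors were higher (13.3%, beside 4.75% of all genes) and 0 lower. They were CDK2, the kinase of S phase, E2F7, a repressor that itself follows E2F activity, tfdp2, a partner of E2F factors, and CCND2 (ENSDARG00000051748), a D cyclin. CDK2 was at 23.7, 33.0 and 52.99 CPM in high-atad2 tumours and 10.9, 13.4 and 20.4 CPM in low-atad2 tumours (log2 fold change 1.28 ± 0.23, SE, edgeR adjusted p = 0.00600). CCND1, the other main D cyclin, differed by -0.92 ± 0.43 on the log2 scale (SE, edgeR adjusted p = 0.217) and overlapping levels of 9.06 to 47.4 CPM in high-atad2 tumours and 17.4 to 95.6 CPM in low-atad2 tumours. The count of 4 was 2 without tumour 12, without tumour 4, without tumour 7 or without tumour 3.

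Of 42 genes of the MYC network and of ribosome production 1 was higher (2.38%, beside 4.75% of all genes). A positive log2 fold change was seen in 36 of the 42 (median 0.31), beside 51.3% of all genes. The called gene was UTP20, a gene of ribosomal RNA processing (log2 fold change 0.89 ± 0.22, SE, edgeR adjusted p = 0.0237), and it lost that call without tumour 9, 10, 7 or 5. The MYC copies (ENSDARG00000045695 and ENSDARG00000007241) had log2 fold changes of 0.22 ± 0.27 and -0.25 ± 0.43, and MYCN -0.09 ± 0.35 (SE, edgeR adjusted p = 0.671, 0.783 and 0.905). Of 27 output genes of the MAP kinase pathway, which BRAF activates, 0 were higher and 1 lower (3.7%, beside 4.19% of all genes), HBEGF, a growth factor gene. In the p53 target list 2 of 26 were higher (7.69%, beside 4.75% of all genes), mdm2, an inhibitor of p53, and XPC, a repair gene. Their log2 fold changes were 0.74 ± 0.19 and 0.84 ± 0.23 (SE, edgeR adjusted p = 0.0273 and 0.0324), and each call was lost with tumours 9 and 10 summed and without tumour 9, 10, 4, 6 or 7.

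Of 46 bromodomain genes and acetylation readers or writers tested, 1 was higher (2.17%, beside 4.75% of all genes) and 0 lower, with a median log2 fold change of 0.26. The called gene was HAT1, which acetylates new histones, at 79.6 to 131 CPM in high-atad2 tumours and 33.8 to 70.7 CPM in low-atad2 tumours (log2 fold change 0.87 ± 0.23, SE, edgeR adjusted p = 0.0310). HAT1 was no longer called when any of 9 of the single tumours was left out. ATAD2B, the paralog of atad2, was at 70.7, 93.2 and 164 CPM in high-atad2 tumours and 57.3, 80.5 and 96.1 CPM in low-atad2 tumours (log2 fold change 0.44 ± 0.23, SE, edgeR adjusted p = 0.278).

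In the list of histone and DNA methylation and chromatin assembly 9 of 41 members tested were higher, beside 4.75% of all genes. All 9 were without overlap, beside 3.21% of all genes, and 1 member was lower, beside 4.19%. The higher ones included DNMT1, which copies DNA methylation onto new strands, HELLS, a helicase of heterochromatin, SUV39H1 (ENSDARG00000055753), a histone H3 methyltransferase, and a copy of ASF1B (ENSDARG00000101037), a histone chaperone. HELLS was at 46.3, 81.5 and 90.0 CPM in high-atad2 tumours and 7.97, 22.2 and 30.6 CPM in low-atad2 tumours (log2 fold change 1.87 ± 0.32, SE, edgeR adjusted p = 0.00508). EZH2, the methyltransferase of Polycomb, fell short at 1.03 ± 0.32 (SE, edgeR adjusted p = 0.0599). The lower member was cbx7a, a Polycomb subunit gene, whose call held only without tumour 2, 4 or 7 among single tumours left out. Without tumour 11 the list had 14 higher members, and without tumours 4 and 7 it had 5.

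**Figure D3:**
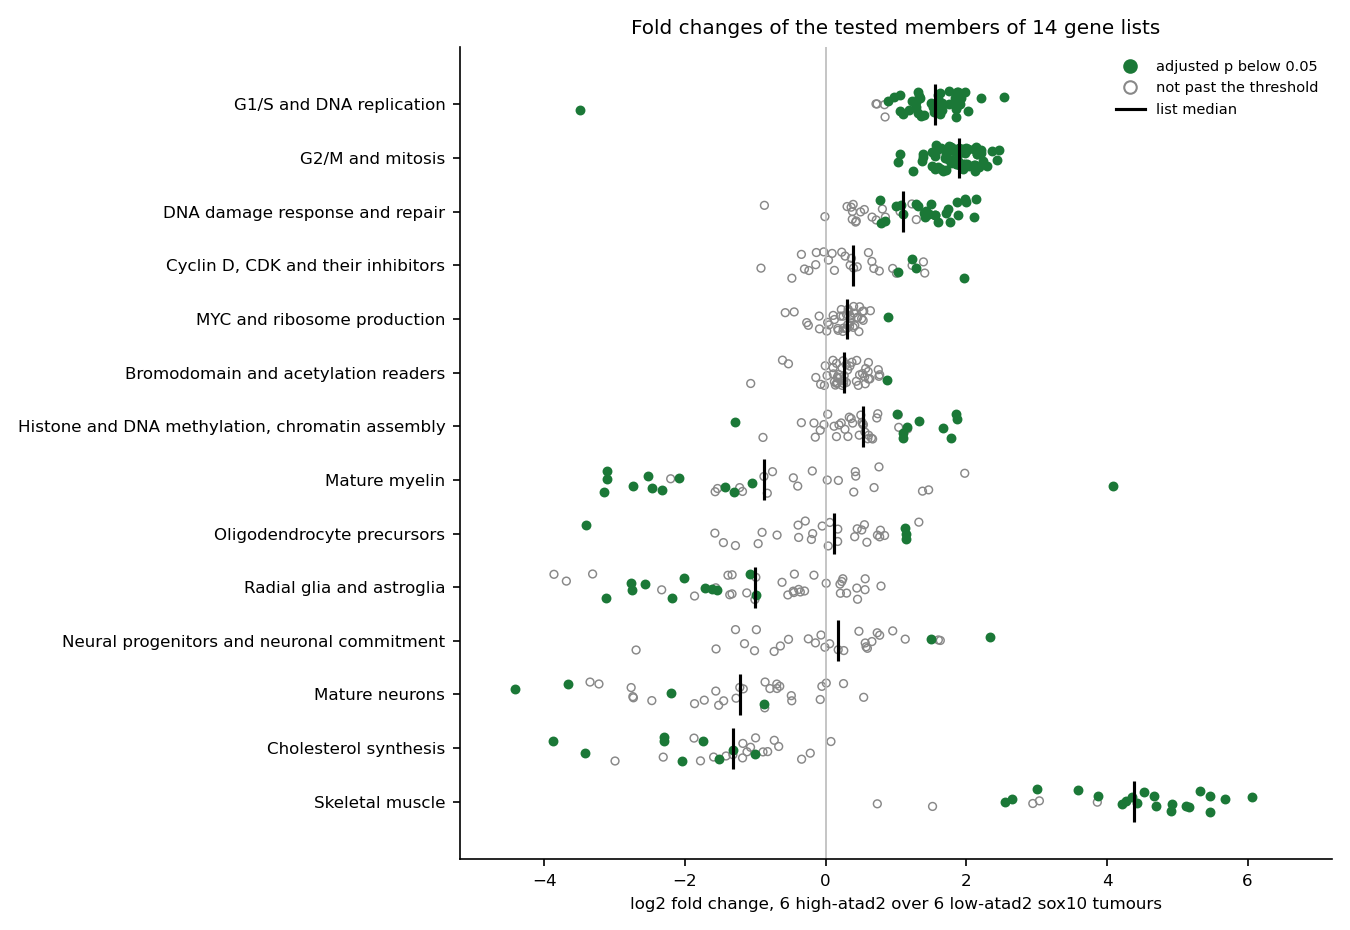
Log2 fold change of every tested member of 14 gene lists, high-atad2 over low-atad2 sox10 tumours (filled green, edgeR adjusted p under 0.05; open grey, not past it; black bar, list median). All mitosis members and all but 1 replication member lie right of 0, while myelin and radial glia members spread widely on both sides with medians of -0.88 and -0.998.

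The summed level of mature myelin genes was lower in high-atad2 tumours. Of 33 tested members of the mature myelin list 11 were lower and 1 was higher (33.3% and 3.03%, beside 4.19% and 4.75% of all genes). Of these 8 and 1 were without overlap, beside 1.76% and 3.21% of all genes, and the median log2 fold change was -0.88. The list sum was 9381, 14285 and 19151 CPM in high-atad2 tumours, 21574, 44511 and 68184 CPM in low-atad2 tumours and 674, 826 and 1132 CPM in mitfa tumours. High-atad2 tumours thus lay below low-atad2 tumours without overlap, and both lay above the mitfa tumours.

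The myelin basic protein gene mbpa was at 266, 883 and 1496 CPM in high-atad2 tumours and 2132, 3984 and 8936 CPM in low-atad2 tumours (log2 fold change -2.52 ± 0.43, SE, edgeR adjusted p = 0.00508). The adhesion molecule gene mag, which acts between myelin and axon, was at 409, 542 and 886 CPM in high-atad2 tumours and 982, 2852 and 4825 CPM in low-atad2 tumours (log2 fold change -2.32 ± 0.34, SE, edgeR adjusted p = 0.00371). Neither gene overlapped between the groups. The gap junction gene GJB1 (ENSDARG00000035553) fell by 3.10 on the log2 scale (edgeR adjusted p = 0.00398).

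Not all myelin genes followed. MYRF, the transcription factor that maintains oligodendrocyte myelin genes, was at 522, 895 and 1321 CPM in high-atad2 tumours and 538, 1118 and 1633 CPM in low-atad2 tumours (log2 fold change -0.40 ± 0.30, SE, edgeR adjusted p = 0.464). EGR2, the corresponding factor of Schwann cells, had 1.98 ± 0.62 (SE, edgeR adjusted p = 0.0640) at 1.23 to 15.3 CPM in high-atad2 tumours and 0.936 to 4.84 CPM in low-atad2 tumours. The higher member was prx, a Schwann cell scaffold gene, at 0.801 to 10.2 CPM in high-atad2 tumours and 0 to 0.749 CPM in low-atad2 tumours (log2 fold change 4.09 ± 0.81, SE, edgeR adjusted p = 0.00809). With the muscle score as covariate the fold change of prx was -0.14 and that of mbpa -3.27. The list median was -0.76, with 11 members lower at an unadjusted p under 0.05, beside 4.85% of all genes. Without tumour 11 these values were -4.25 for prx, -5.46 for mbpa and -1.94 for the list. There were then 2 such members of 33, beside 3.04% of all genes. Without a covariate, leaving out any 1 tumour gave 10 to 14 lower members, and leaving out tumours 4 and 7 gave 9. Summing tumours 9 and 10 gave 10 lower of 34 tested. With the mean level of the 2 cell cycle lists as covariate, an alternative added after the data were seen, the median was -0.67, and mbpa was at -2.48 with an unadjusted p of 0.0112.

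**Figure D4:**
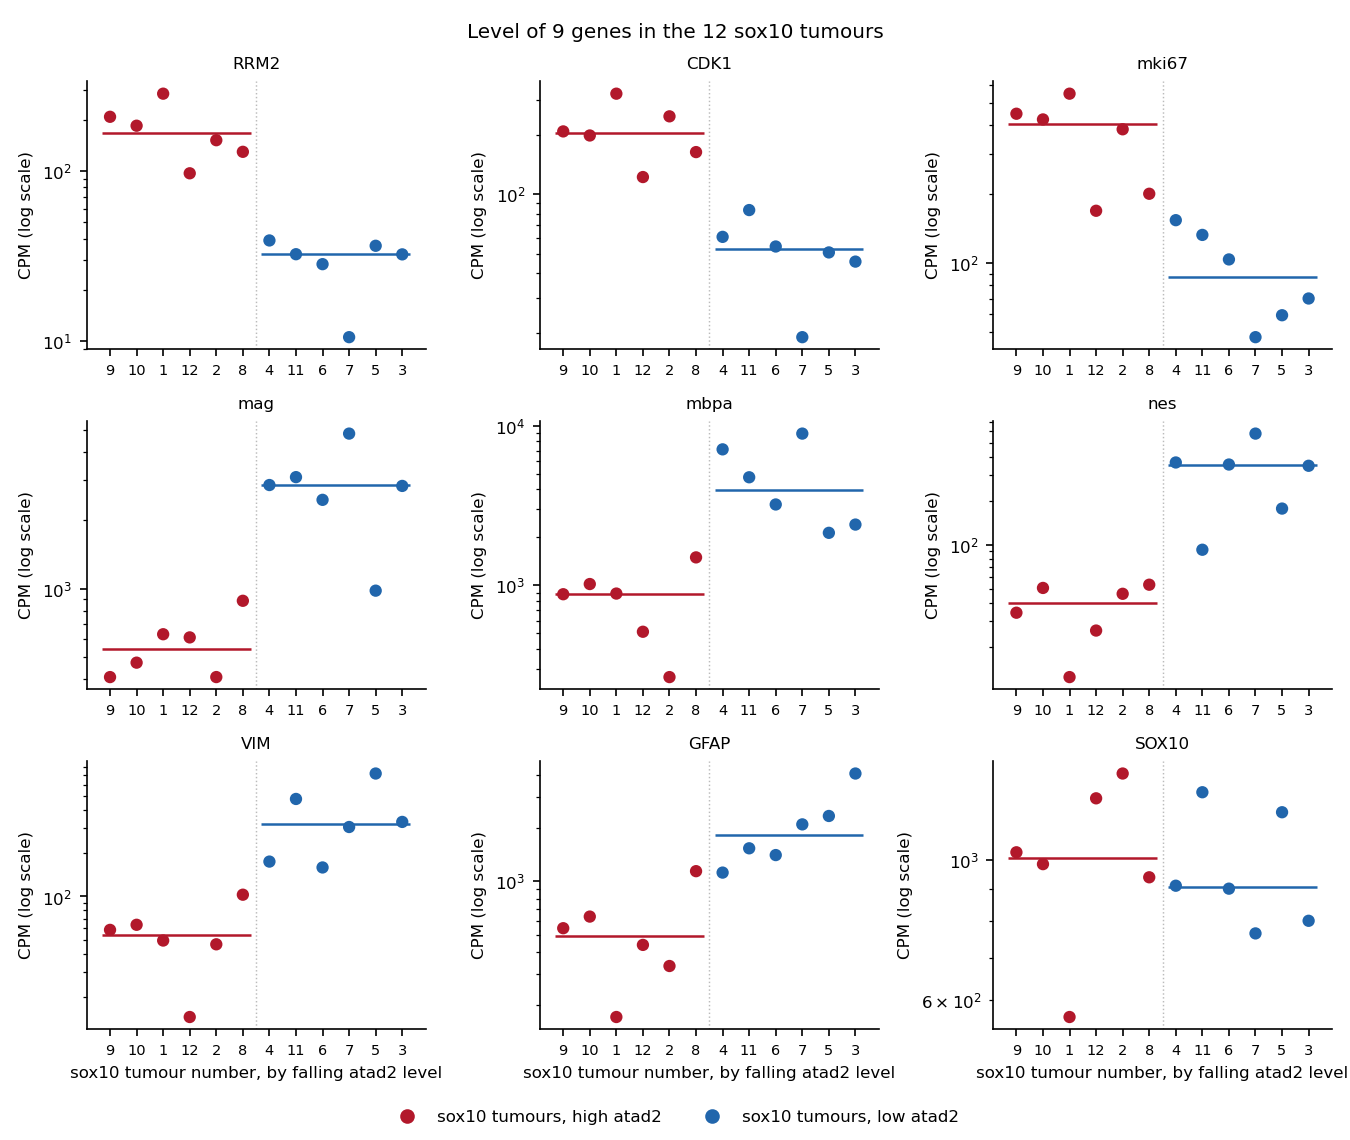
CPM (log axis) of 9 genes in each sox10 tumour, ordered by falling atad2 level, with high-atad2 tumours in red on the left, low-atad2 tumours in blue on the right and lines at the group medians. RRM2, CDK1 and mki67 lie higher and mag, mbpa, nes and VIM lower in high-atad2 tumours without overlap, GFAP overlaps by a single tumour in each group, and SOX10 overlaps throughout.

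Few genes that mark glial precursors and the whole glial lineage passed the test, although the summed level of the precursor list ran higher in high-atad2 tumours. SOX10 was at 564, 1007 and 1372 CPM in high-atad2 tumours and 765, 906 and 1281 CPM in low-atad2 tumours (log2 fold change 0.06 ± 0.26, SE, edgeR adjusted p = 0.916). OLIG2, a factor of the oligodendrocyte lineage, and S100B, a glial calcium-binding protein gene, had log2 fold changes of -0.20 ± 0.24 and 0.20 ± 0.39 (SE, edgeR adjusted p = 0.663 and 0.804). Of 30 tested members of the oligodendrocyte precursor list 3 were higher (beside 4.75% of all genes), SOX5, qkia and SOX8 (ENSDARG00000037782). In the other direction 1 was lower (beside 4.19%), PTPRZ1 (ENSDARG00000051814). A positive log2 fold change was seen in 17 of the 30 (median 0.12), beside 51.3% of all genes. The list sum was 7206, 8218 and 10343 CPM in high-atad2 tumours and 3497, 5957 and 8111 CPM in low-atad2 tumours. Among low-atad2 tumours only tumour 11, at 8111 CPM, reached the range of the high-atad2 tumours in this sum. SOX5, a factor that holds back oligodendrocyte maturation in mice, was at 456, 615 and 849 CPM in high-atad2 tumours and 207, 287 and 338 CPM in low-atad2 tumours (log2 fold change 1.14 ± 0.23, SE, edgeR adjusted p = 0.00888). The SOX5 groups did not overlap, and without tumours 4 and 7 its edgeR adjusted p was 0.0556. The RNA-binding protein gene qkia was at 1271 to 2149.7 CPM in high-atad2 tumours and 486 to 1151 CPM in low-atad2 tumours (log2 fold change 1.13 ± 0.26, SE, edgeR adjusted p = 0.0155). The list had 2 higher members without tumour 9, 10, 4, 7, 5 or 3 and 5 without tumour 1, and 0 lower without tumour 10, 12 or 7.

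Radial glia and astroglia genes were lower in high-atad2 tumours where they changed. Of 44 tested members 11 were lower and 0 higher, with a median log2 fold change of -0.998. The list sum was 5458, 8193 and 11075 CPM in high-atad2 tumours and 11045, 14277 and 15619.6 CPM in low-atad2 tumours, overlapping by tumours 8 and 11. The intermediate filament gene nes, used as a marker of neural stem cells, was at 12.4, 40.2 and 53.2 CPM in high-atad2 tumours and 92.5, 352 and 579.9 CPM in low-atad2 tumours (log2 fold change -3.12 ± 0.42, SE, edgeR adjusted p = 0.00324). VIM (ENSDARG00000010008), another filament gene, had -2.76 ± 0.46, and apoeb, a lipid carrier gene of glia and macrophages, had -2.57 ± 0.46 (SE, edgeR adjusted p = 0.00433 and 0.00602). GFAP, the astroglial filament, was at 171, 490.2 and 1143 CPM in high-atad2 tumours and 1122, 1822 and 4083 CPM in low-atad2 tumours (log2 fold change -2.01 ± 0.42, SE, edgeR adjusted p = 0.0106). The FABP7 copies (ENSDARG00000007697 and ENSDARG00000034650), named in advance, had log2 fold changes of -0.30 ± 0.47 and -1.39 ± 0.68 (SE, edgeR adjusted p = 0.754 and 0.238).

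With the muscle score as covariate the median of the radial glia list was 0.33. In that edgeR fit 4 members were lower at an unadjusted p under 0.05, beside 4.85% of all genes. Among them were VIM at -4.37 and GFAP at -3.12, while nes was at -1.42 with an unadjusted p of 0.178. Without tumour 11 that median was -1.18, with 8 such members, beside 3.04% of all genes. VIM, GFAP and nes were then at -6.55, -7.32 and -4.15. With the cell cycle score as covariate GFAP was at 0.22 and the list median at -0.49. Without tumours 4 and 7 the number of lower members was 5.

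Mature neuron genes had low sums, and their calls depended on single tumours. Of 31 tested mature neuron genes 4 were lower (12.9%, beside 4.19% of all genes) and 0 higher, with a median log2 fold change of -1.22. The list sum was 309, 623 and 972 CPM in high-atad2 tumours and 587, 1027 and 2438 CPM in low-atad2 tumours, the highest being tumours 7 and 4 at 2438 and 1641 CPM. The 4 were GAD2, which makes the transmitter GABA, SNAP25 (ENSDARG00000020609) and vamp2, of vesicle release, and GRIN1 (ENSDARG00000027828), a glutamate receptor subunit. Without tumour 7 there were 0 lower members, and there were 1 or 2 without tumours 9, 10, 1, 12 or 4. Without both 4 and 7 there were 0 lower and 1 higher. With tumours 9 and 10 summed, 2 of 33 tested were lower. With the muscle score as covariate the median was 1.09, and 0.96 when tumour 11 was also left out. Of 29 tested genes of neural progenitors and neuronal commitment 2 were higher (6.9%, beside 4.75% of all genes), STMN1 (ENSDARG00000004169), a microtubule regulator, and EOMES (ENSDARG00000006640), a T-box factor. EOMES lost its call without tumour 9, 10, 7, 5 or 3. The sum of the progenitor and commitment list was 1821, 3434 and 4019 CPM (lowest, median and highest) in high-atad2 tumours. In low-atad2 tumours it was 1871, 3140 and 3908 CPM.

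Cholesterol synthesis genes ran low in high-atad2 tumours. Of 28 tested members 27 had a negative log2 fold change, 9 were lower (32.1%, beside 4.19% of all genes) and 0 higher, and the median was -1.32. The sum was 442, 614 and 692 CPM in high-atad2 tumours and 539, 1247 and 2911 CPM in low-atad2 tumours, where tumours 11, 4 and 7 were highest and tumour 5 lay within the range of the other group. CYP51A1, an enzyme of the sterol branch, was at 4.01, 5.19 and 16.5 CPM in high-atad2 tumours and 5.56, 68.2 and 178 CPM in low-atad2 tumours (log2 fold change -3.41 ± 0.79, SE, edgeR adjusted p = 0.0164). The groups overlapped in this gene. The lipoprotein receptor gene ldlra had -1.74 ± 0.49 (SE, edgeR adjusted p = 0.0415).

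The number of lower cholesterol genes depended on the tumours included. It was 4 without tumour 10 and 5 without tumour 9, 2, 8, 4, 11 or 7, and 17 without tumour 5. It was 5 with tumours 9 and 10 summed, 1 without tumours 4 and 7, and 0 between the 4 highest and 4 lowest. With the muscle score as covariate the median was -2.58, with 19 members lower at an unadjusted p under 0.05, beside 4.85% of all genes. Without tumour 11 it was 0.27, with 0 such members, beside 3.04% of all genes. With the cell cycle score it was -1.88, with 11 such members, beside 1.82% of all genes lower and 2.7% higher at that level.

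**Figure D5:**
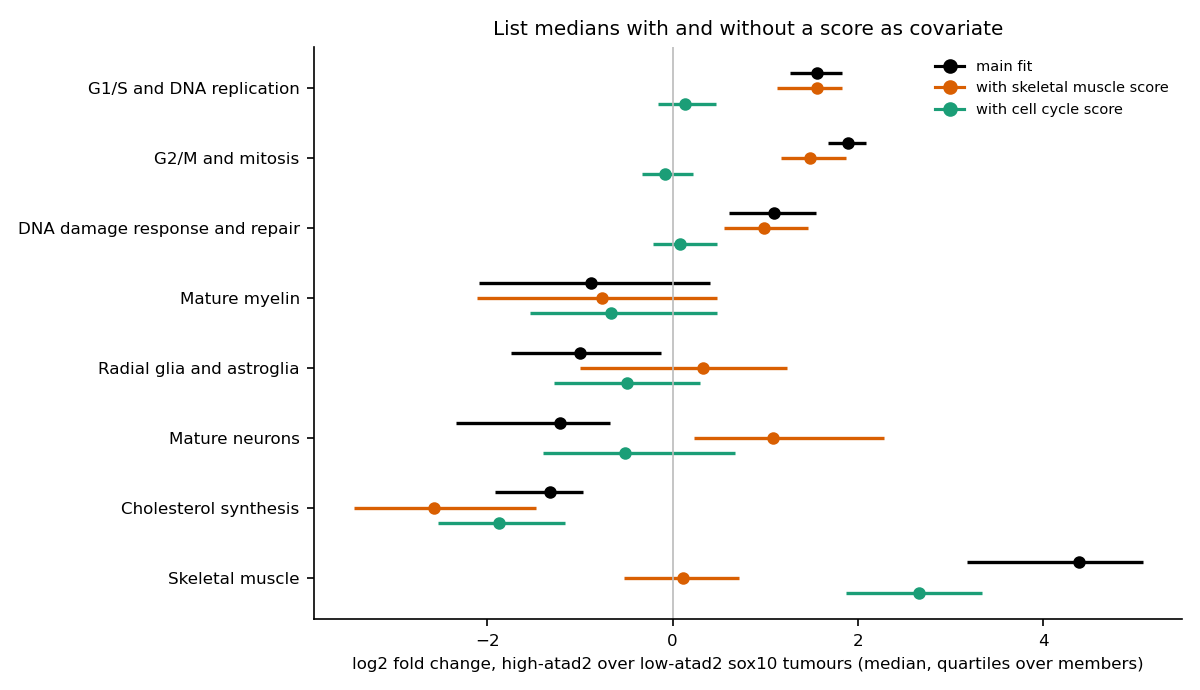
Median (points) and quartiles (lines) over the tested members of 8 lists of the log2 fold change, high-atad2 over low-atad2 sox10 tumours, in the main fit (black), with the skeletal muscle score as covariate (orange) and with the cell cycle score as covariate (green). The mitosis median is 1.89, 1.49 and -0.08 in these fits and the myelin median -0.88, -0.76 and -0.67, while the radial glia median changes sign with the muscle score when tumour 11 is included. The mature neuron median also changes sign with that score, from -1.22 to 1.09. The cell cycle score is made of the replication and mitosis genes themselves, so the fall of their medians in that fit was built in. The same holds for the skeletal muscle list and the muscle score, which is made of its genes. Both scores part the groups without overlap.

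In the hypoxia and glycolysis list 4 of 49 members tested were higher and 4 lower (8.16% each, beside 4.75% and 4.19% of all genes). Of the 49, 15 had a positive log2 fold change, and the median was -0.47. The higher ones were copies of ALDOA, GAPDH, PKM and PFKM with log2 fold changes of 3.69 to 6.28, and with the muscle score as covariate these were 0.21 to 1.97, or -5.56 to 0.92 when tumour 11 was also left out. The lower ones were HK2, the first enzyme of glycolysis, copies of TPI1 (ENSDARG00000025012) and ENO1 (ENSDARG00000013750), and BNIP3, a mitophagy gene. HK2 was at 10.1 to 40.5 CPM in high-atad2 tumours and 36.5 to 102 CPM in low-atad2 tumours (log2 fold change -1.82 ± 0.35, SE, edgeR adjusted p = 0.00707). Without tumour 2 the lower members numbered 14, and without tumour 5 they numbered 6. In oxidative phosphorylation 1 of 56 was higher (1.79%, beside 4.75% of all genes). It was COX6A1, a subunit of cytochrome oxidase (log2 fold change 3.61 ± 0.56, SE, edgeR adjusted p = 0.00398), which was at 0.43 with the muscle score and at -2.15 when tumour 11 was also left out.

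At the low end of the fold changes, the naming rule gave ATP1B1 (ENSDARG00000076833), GDPD2, CCKAR, drd4a, dhrs12lb and GAD2, at log2 fold changes of -5.19 to -4.42. ATP1B1 encodes a subunit of the sodium pump, CCKAR a receptor for cholecystokinin and drd4a a dopamine receptor. All were near 0 in high-atad2 tumours, with medians of 0.245 CPM for drd4a to 2.91 CPM for dhrs12lb, and highly variable in low-atad2 tumours, where ATP1B1 ran from 0.0624 to 77.5 CPM. Only dhrs12lb separated the groups, at 1.67 to 10.7 CPM in high-atad2 tumours and 12.1 to 272 CPM in low-atad2 tumours (log2 fold change -4.45 ± 0.86, SE, edgeR adjusted p = 0.00737). Without tumours 4 and 7 ATP1B1 was at -1.61 and GAD2 at -1.89 on the log2 scale, and neither was called. GDPD2 was at 238 CPM in tumour 5 and at 0.749 to 11.2 CPM in the other 5 low-atad2 tumours. ATP1B1, GDPD2 and GAD2 each lost their call when any of several single tumours was left out, tumours 9, 10 and 12 among them for all 3.

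Among markers of other cell types, 5 of 26 tested members of the macrophage and microglia list were lower (19.2%, beside 4.19% of all genes) and 0 higher, with a median of -0.18. The sum was 2022, 2073 and 5227 CPM in high-atad2 tumours and 2109.7, 3004 and 3781 CPM in low-atad2 tumours, tumour 8 being the highest of all. One of the 5, MPEG1 (ENSDARG00000055290), a pore-forming protein gene of macrophages, was lower (log2 fold change -1.50 ± 0.37, SE, edgeR adjusted p = 0.0237). The count was 0 without tumour 10 or tumour 7 and with tumours 9 and 10 summed, and 1 to 3 without tumour 9, 1, 12, 2, 4, 5 or 3. Neutrophil genes had 1 of 9 higher (lyz) and lymphocyte genes 1 of 20 (tbx21), beside 4.75% of all genes. Lower were 1 of 29 interferon genes (irf9), 1 of 32 epidermal genes (ITGA6) and 1 of 34 fibroblast genes (MMP14), beside 4.19%. Among 9 erythrocyte, 20 endothelial and 18 pigment cell genes 0 passed in either direction, beside 8.95% of all genes. Epidermal genes had a positive log2 fold change in 5 of 32 members (median -0.80) and erythrocyte genes in 1 of 9 (median -1.04), while lymphocyte genes did in 16 of 20 (median 0.97) and fibroblast genes in 26 of 34 (median 0.59), beside 51.3% of all genes. In the neural crest list 1 of 22 was lower (4.55%, beside 4.19% of all genes), NGFR (ENSDARG00000088708), a neurotrophin receptor of crest and immature Schwann cells. In the Notch list 1 of 29 was higher (3.45%, beside 4.75% of all genes), LFNG, which modifies Notch receptors. With tumours 9 and 10 summed lyz, tbx21, irf9 and MMP14 were no longer called, and without tumours 4 and 7 NGFR and LFNG were not.

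The mitfa tumours, which had no part in the split, served to ask whether the same genes follow atad2 there. A slope on log2 atad2 was fitted over the 6 mitfa tumours, and 0 of 17588 genes passed the adjusted threshold in edgeR, as in limma-voom, with 1999 (11.4%) at an unadjusted p under 0.05 in edgeR. Of the genes called higher in high-atad2 sox10 tumours 510 of 837 had a positive slope in mitfa tumours, and of those called lower 453 of 738 did, beside 47.7% of all genes. In the mitosis list 37 of 66 slopes were positive, with a median of 0.20 per doubling of atad2, and in the replication list 22 of 48, with a median of -0.04. For muscle all 26 were positive with a median of 1.58.

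The difference of slopes, sox10 minus mitfa, was tested in 1 model over 18 tumours. It passed for 454 of 18730 genes, 69 positive (0.368%) and 385 negative (2.06%), while 49.6% of all genes had a positive difference. In the replication and mitosis lists 0 members passed, and the medians were 0.65 and 0.64. At an unadjusted p under 0.05, 12 of 48 and 13 of 66 members had a positive difference and 0 a negative one. At that level 16.3% of all genes differed, counting both directions. In the fibroblast and matrix list 10 of 35 were negative and 0 positive, and in the myelin and radial glia lists 2 of 34 and 2 of 44 were negative and 0 and 1 positive. With tumours 9 and 10 summed 344 genes passed.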

How the data were processed

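Raw counts per gene, as deposited by the authors, cover 27057 Ensembl genes in 18 libraries of whole-tumour RNA. Another 4 entries, of reads assigned to no gene (19.9% to 30.1% of reads per library), entered neither library sizes nor tests. Per the submitters' processing notes FastQC, Trimmomatic, STAR and DESeq2 and the build GRCz10 were used. Their roles, the gene annotation and whether strand was used are not given in the sources consulted, so overlapping genes cannot be separated and near-identical copies are less certain. Columns were matched to samples by the library name in each sample's description. Gene names came from a reference table, which named 24020 genes, and the identifier is printed where copies share a name.

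The 12 sox10 tumours were ranked by atad2 CPM (deposited counts divided by the library's gene total, times 1000000) and split 6 and 6. The filter filterByExpr of edgeR, with minimum counts of 10 and 15 in total, left 17607 genes besides atad2. They were scaled by TMM factors (0.892 to 1.08), and edgeR 4.0.16 under R 4.3.3 tested them by the robust quasi-likelihood F test without covariate. Benjamini-Hochberg adjustment ran over every gene in a fit, and calls have an adjusted p under 0.05. Fold changes are high minus low on the log2 scale, and a standard error is the absolute fold change over the root of F. Printed levels are plain CPM without TMM factors. In counts simulated on this comparison (17337 genes, 200 of them changed) 105 genes were called, of which 5 were false, and the share of changed genes recovered was 9.33% at 2-fold, 67.2% at 4-fold and 81.2% at 8-fold.

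The split, the 29 gene lists and the rule for named genes were chosen with earlier results of these data known. Of 1029 list names 963 were found in the reference table, 217 of them after a copy letter was ignored, and a name could give up to 3 identifiers. Named genes were a set given in advance, the 6 highest and 6 lowest fold changes among called genes with a proper gene name and a mean of at least 2 CPM, and at most 2 called members per list, those with the lowest adjusted p, and a few of these are not reported here. Other members are named where a list's count is small or an example was needed, and were chosen after their values were seen. Scores used as covariates are mean log2 CPM over the skeletal muscle list or over both cell cycle lists. The cell cycle score, the fit without tumours 9 and 10 and the muscle score fit without tumour 11 were added after the data were seen. Alternatives were other scaling, filters and tools (limma-voom in limma 3.58.1 for the slopes, DESeq2 1.42.0), other divisions of atad2, covariates, and tumours summed or left out. Library measures were compared by 2-sided exact permutation tests over 924 splits, with a smallest possible p of 0.00216.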

Additional observations from a re-analysis of the deposited data

Results flagged for a closer look

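Of 206 sets of 6 tumours tested (named genes and list sums, log2 of CPM plus 0.5), 23 had a tumour far from the others by Dixon's rule, where chance flags about 1 in 20. Low-atad2 tumour 11 accounted for 10 of these.

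Tumour 11 was the low-atad2 tumour with muscle transcripts. It stood above the others with 1483 CPM of the summed muscle list, where the others had 55.0 to 117 CPM. It stood out in the same direction for actc1b (124 CPM), GAPDH (ENSDARG00000043457, 62.2 CPM), nme2b.2 (37.9 CPM), pvalb3 (16.4 CPM), CKMT2 (ENSDARG00000069615, 1.81 CPM) and synpo2b (0.374 CPM). It stood below the others for MPEG1 (ENSDARG00000055290, 26.9 CPM), NGFR (ENSDARG00000088708, 17.8 CPM) and UTP20 (15.096 CPM).

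Among the other low-atad2 tumours only tumour 7 was far from its group, with 10.5 CPM of RRM2 (ENSDARG00000078069), against 28.3 to 39.0 CPM. Among high-atad2 tumours, number 12 was low in S100B (233 CPM, against 1351 to 2489.9 CPM) and irf9 (37.1 CPM) and high in MCM2 (239.7 CPM) and the erythrocyte sum (202 CPM). Tumour 8 was high in the macrophage sum (5227 CPM) and the interferon sum (2640.0 CPM) and low in kif20a (22.6 CPM). Tumour 2 was high in the pigment cell sum (402 CPM) and low in LFNG (33.0 CPM) and SC5D (1.42 CPM). Tumour 1 was high in HAT1 (131 CPM) and low in NGFR (ENSDARG00000088708, 1.46 CPM).

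For 6 named genes the slope on log2 atad2 differed between sox10 and mitfa tumours in edgeR's quasi-likelihood test. The difference, sox10 minus mitfa, was -7.52 for VIM (ENSDARG00000010008, adjusted p = 0.0191), -5.07 for OLIG2 (adjusted p = 0.00475) and -5.03 for nes (adjusted p = 0.0156). It was -4.88 for HBEGF (adjusted p = 0.00639), -2.72 for MMP14 (ENSDARG00000008388, adjusted p = 0.00837) and 1.67 for HAT1 (adjusted p = 0.0244). In mitfa tumours the 5 genes with a negative difference were highest in tumours 5 and 1, which have the highest atad2 of that group, at 79.3 and 61.3 CPM. OLIG2 was at 79.6 and 56.2 CPM in these and at most 1.27 CPM in the other 4, and VIM at 239.6 and 1185 CPM and at most 18.02 CPM.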

How the results depend on the processing

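The number of genes called higher was 837 and lower 738 in the main fit. It was 386 and 231 against a minimum of 1.5-fold, 531 and 484 with tumours 9 and 10 summed, 416 and 392 without tumours 4 and 7, 257 and 188 without tumours 9 and 10, and 1361 and 1610 with DESeq2. It was 0 and 14 with the skeletal muscle score as covariate, 0 and 0 with that score and without tumour 11, and 0 and 0 with the cell cycle score, where 475 higher and 320 lower genes reached 0.05 in edgeR before adjustment. Leaving out each tumour in turn gave 520 (without tumour 10) to 932 (without tumour 11) higher and 476 (without tumour 7) to 941 (without tumour 5) lower. Without tumour 9 it was 536 and 482, and without tumour 10 it was 520 and 478. The other settings (RLE factors, both filters, no robust estimation, continuous atad2, 4 against 4, the share of reads outside genes) gave 635 to 980 higher and 528 to 832 lower. No paired analysis was possible because the labels give no pairing between high- and low-atad2 tumours.

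With the muscle score 10 of 73 named fold changes changed sign: ATAD2B -0.30, MYCN 0.06, MYC (ENSDARG00000007241) 0.30, SOX10 -0.34, FABP7 (ENSDARG00000034650) 2.82, ATP1B1 (ENSDARG00000076833) 4.24, GDPD2 1.75, GAD2 2.05, tbx21 -0.61 and MMP14 (ENSDARG00000008388) 0.52, and all 59 called among them lost their call. With that score and without tumour 11 it was 19: ATAD2B -0.85, CCND1 0.39, MYCN 0.38, MYC (ENSDARG00000007241) 2.31, OLIG2 1.97, S100B -0.93, FABP7 (ENSDARG00000034650) 0.76, ELAVL3 0.35, pvalb3 -0.32, CKMT2 (ENSDARG00000069615) -3.77, myhc4 -0.75, drd4a 3.77, vamp2 1.16, LFNG -2.21, mdm2 -0.26, ALDOA (ENSDARG00000034470) -0.46, COX6A1 -2.15, tbx21 -3.25 and actc1b -0.10. With the cell cycle score, which holds mki67, PCNA and TOP2A themselves, it was 11: mki67 -0.32, PCNA -0.50, TOP2A -0.32, E2F7 -0.21, EZH2 -0.50, STMN1 -0.18, lyz -2.04, GFAP 0.22, MMP14 (ENSDARG00000008388) 0.11, S100B -0.13 and MYCN 0.06. All 59 calls were lost in both fits. Of these 59 calls, 14 were lost with tumours 9 and 10 summed and 32 without both of these tumours. The loss was 23 without tumours 4 and 7 and 23 against a minimum of 1.5-fold. Leaving out single tumours lost from 1 call (tumour 11) to 14 (tumour 10 or 7), and RLE factors lost 0. The named genes that changed sign under alternatives other than the 2 scores were ones not called with 12 libraries. MYCN was 0.06 without tumours 9 and 10. MYCN was 0.03 without tumour 12 or 5 (-0.26 to 0.03 over single tumours left out), and MYC (ENSDARG00000045695) -0.04 without tumours 4 and 7. SOX10 was -0.05, -0.06, -0.03 and -0.02 without tumour 12, 2, 4 or 7, (-0.06 to 0.19 over single tumours left out) and -0.12 without 4 and 7. OLIG2 was 0.04 with continuous atad2 and 0.16 with 4 against 4, ELAVL3 0.01 and 0.16, S100B -0.03 with 4 against 4, and ascl1a -0.52 there and -0.43 without tumour 2 (-0.43 to 1.25 over single tumours left out). The cause of these changes was not tested. Promoter motifs were planned and are not analysed here.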

Other observations

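With the skeletal muscle score as covariate 14 genes were lower in high-atad2 tumours in edgeR's quasi-likelihood test, and 9 of them were also lower without it. All 14 were highest in low-atad2 tumour 11, and 0 of them were called when tumour 11 was left out of that fit, where 13 kept a negative fold change. The lowest adjusted p was that of soul5, with a log2 fold change of -7.67 with the score (adjusted p = 0.000971), against -3.35 without the score (adjusted p = 0.105). It was at 451 CPM in tumour 11 and at most 12.02 CPM in the other 11 tumours, and RBMS1 at 607 and at most 63.5 CPM. The soul5 medians were 8.86 CPM in high-atad2 tumours and 6.74 CPM in low-atad2 tumours, so that the medians and the fitted fold change differ in direction. Genes lower in both fits included RBMS1, an RNA-binding protein gene, tppp2, a tubulin-binding protein gene, SIK2, a kinase gene, and CAMSAP2, which binds microtubule minus ends. The median of tppp2 was 12.8 CPM in high-atad2 tumours and 155.5 CPM in low-atad2 tumours, and its log2 fold change -3.02 without the score (adjusted p = 0.00419) and -5.08 with it (adjusted p = 0.0395), or -6.75 with it and without tumour 11 (adjusted p = 0.776).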
